A study of Mus musculus with 10 samples.

Results

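Expression of 9 genes that are widely used as a readout of the transcriptional coactivator YAP was examined in cultured mouse tongue epithelial cells: Cyr61, Ctgf, Amotl1, Amotl2, Ajuba, Axl, Gadd45b, Ankrd1 and Crim1. They were chosen by symbol, as a list of direct YAP targets, from a deposited table of 18586 rows, and Cyr61 and Ctgf appear under these older symbols (the current ones are Ccn1 and Ccn2). Of the 9 genes listed, 8 had a row; no row carried the symbol Ankrd1, which was not analysed here. All 8 passed the filter of at least 1 TPM in at least 4 libraries, as did 11630 genes of the whole table. TPM is a transcript level scaled for transcript length and to a common sum in every library.

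The study compared cells called EY with cells called N. Both carried Krt14-CreERT, a tamoxifen-inducible Cre driven by the keratin 14 promoter, LSL-rtTA, a Cre-dependent transactivator that responds to doxycycline, and the inducible green fluorescent histone tetON_H2B-GFP. EY cells carried in addition tetON_E6-E7, the inducible oncoproteins of human papillomavirus, and tetON_YAP1S127A, an inducible YAP1 with serine 127 replaced by alanine, which escapes inhibition by LATS kinases. Cells were taken from the tongue 15 days after induction, sorted for the green reporter and grown on collagen in medium with doxycycline. The labels give no age for the mice. The study's methods state an age range in weeks for its transgenic mice, with no age for each line. There were 2 libraries for each of the EY culture lines EY3960, EY4028 and EY4174, 6 in all. The 4 libraries of N were from the same line, N4172, so that genotype and line cannot be told apart, and libraries of a line are not separate animals. The p-values accordingly measure the spread between libraries, part of which may be technical. E6-E7 and YAP1S127A were always present together, and their separate parts cannot be told apart in these cells.

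YAP and its paralogue TAZ are the effectors of the Hippo pathway. When the kinases MST1/2 and LATS1/2 are active, YAP is phosphorylated and held in the cytoplasm; when they are not, it enters the nucleus and binds TEAD proteins, which attach to DNA at promoters and enhancers. The genes examined here fall into several roles. Cyr61 and Ctgf encode secreted matricellular proteins of the CCN family. Amotl1, Amotl2 and Ajuba encode scaffold proteins that act back on the Hippo pathway, the angiomotins by binding YAP and Ajuba by restraining LATS. Axl is a receptor tyrosine kinase for the ligand Gas6, Crim1 a transmembrane protein that binds bone morphogenetic proteins, and Gadd45b a stress-inducible regulator of p38 and JNK signalling. Ankrd1 encodes a nuclear ankyrin repeat cofactor best known in muscle.

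Promoter sequences were read from RefSeq on mouse build GRCm38.p6 for 8 of the 9 genes; Ctgf had no entry. Each is the 250 bases before the annotated start, written from 5′ to 3′ on the strand of the gene. The genes shown are those whose levels the results turn on, with Ajuba as a gene that was not higher in EY and has 2 matches. Capitals mark the TEAD motif GGAATG, or its reverse complement CATTCC, searched on both strands. Cyr61 is on the minus strand at chr3:145649986-145650235, Amotl2 on the plus strand at chr9:102717554-102717803, Axl on the minus strand at chr7:25788734-25788983, Ajuba on the minus strand at chr14:54577662-54577911 and Gadd45b on the plus strand at chr10:80929841-80930090.
Cyr61: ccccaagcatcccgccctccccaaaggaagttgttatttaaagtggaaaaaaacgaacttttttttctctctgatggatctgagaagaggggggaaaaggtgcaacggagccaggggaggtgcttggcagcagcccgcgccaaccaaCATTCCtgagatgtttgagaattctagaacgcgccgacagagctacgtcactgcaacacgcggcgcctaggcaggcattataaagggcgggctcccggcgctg
Amotl2: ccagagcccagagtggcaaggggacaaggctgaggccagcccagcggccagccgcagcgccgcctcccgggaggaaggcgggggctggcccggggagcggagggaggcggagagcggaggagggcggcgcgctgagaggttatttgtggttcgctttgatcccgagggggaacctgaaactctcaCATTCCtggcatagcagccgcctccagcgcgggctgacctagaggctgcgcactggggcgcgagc
Axl: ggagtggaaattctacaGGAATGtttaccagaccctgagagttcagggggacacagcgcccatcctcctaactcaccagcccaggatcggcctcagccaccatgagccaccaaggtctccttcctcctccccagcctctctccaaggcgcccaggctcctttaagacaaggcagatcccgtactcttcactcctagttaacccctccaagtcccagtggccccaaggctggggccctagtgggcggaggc
Ajuba: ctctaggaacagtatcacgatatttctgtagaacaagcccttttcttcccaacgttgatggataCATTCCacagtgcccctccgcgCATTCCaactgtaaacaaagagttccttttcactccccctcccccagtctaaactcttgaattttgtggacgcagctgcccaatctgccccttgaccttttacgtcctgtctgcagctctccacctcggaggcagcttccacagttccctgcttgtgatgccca
Gadd45b: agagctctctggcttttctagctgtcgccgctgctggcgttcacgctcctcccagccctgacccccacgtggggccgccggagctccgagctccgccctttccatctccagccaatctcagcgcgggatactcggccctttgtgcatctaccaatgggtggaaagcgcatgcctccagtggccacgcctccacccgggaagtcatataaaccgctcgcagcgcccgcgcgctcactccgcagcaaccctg

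The motif was found before the start of 6 of the 8 genes with an entry, namely Cyr61, Axl, Crim1, Amotl2, Ajuba and Ankrd1, against 12.6% of 32851 promoter windows of the same length in the table. In Cyr61 the match spanned positions -103 to -98 from the start, in Amotl2 -65 to -60, in Crim1 -79 to -74 and in Axl -233 to -228. Ajuba held 2 matches, at -186 to -181 and -164 to -159, and Ankrd1 also held 2. These letters were not in the windows of Gadd45b and Amotl1. The AP-1 motif TGANTCA, which is its own reverse complement, was in 0 of the 8 windows and in 6.75% of all windows. A match describes the sequence and does not show that a TEAD protein binds there, and enhancers were not examined. Set beside the levels given next, Cyr61 and Amotl2 have a match and rose in EY, and Gadd45b rose with no match in this window. Axl, Crim1 and Ajuba have matches and were not called over all EY libraries. Amotl1 has no match and was not called. Whether a match goes with a change was not tested.

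Cells of both genotypes expressed basal epithelial markers. The summed TPM of 7 basal epithelial markers, most of it Krt5 and Krt14, ranged from 4220 to 7184 in EY and from 5198 to 5897 in N. Within this list Trp63, a basal transcription factor gene, was lower in EY at a mean of 53.0 TPM against 79.9 TPM in N (log2 difference -0.58, limma adjusted p 0.00262). The epithelial adhesion gene Epcam was higher, at 58.8 TPM against 33.01 TPM (0.82, limma adjusted p 6.74e-05), both below the size required for a call. Fibroblast genes Col1a1 and Pdgfra did not exceed 0.739 TPM in any library, and the other 6 fibroblast markers had no row. Of the smooth muscle markers, Acta2 was at 0.0332 to 0.354 TPM in EY and 5.46 to 6.72 TPM in N, whereas Myh11, Cnn1 and Des did not exceed 0.712 TPM. The summed endothelial markers reached at most 1.36 TPM, and the summed immune markers, nearly all of them Cd68, ranged from 29.8 to 72.6 TPM in EY and from 42.3 to 70.2 TPM in N. The part of these differences in the results that follow was not tested. Each library had between 10852 and 11522 genes at 1 TPM or more, and the sequencing depth is unknown because TPM do not keep it. In such bulk samples, fewer cells of a type and less RNA per cell cannot be told apart.

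The comparison of EY with N asks whether YAP target genes are higher where active YAP1 is expressed together with E6-E7. In all, 3 genes rose in EY with all EY libraries above all N libraries: Cyr61, Gadd45b and Amotl2. Their mean TPM in EY was 5.54 times, 3.17 times and 2.99 times that in N. Ctgf, Axl, Crim1, Amotl1 and Ajuba did not pass the test over all EY libraries, and Axl differed between the EY lines. A gene was called at an adjusted p under 0.01 and a difference over 1 on log2(TPM + 1), a scale that understates changes of low genes. By this rule, 3.55% of all genes tested were called in either direction and 1.85% were called higher in EY, against 3 of the 8 YAP targets tested higher and 0 lower. At an unadjusted limma p under 0.05, 4 of these targets were higher and 0 lower, against 21.2% of all genes tested that were higher and 16.3% that were lower. At an adjusted p under 0.01 with no demand on the size, 11.8% of genes passed and the same 3 YAP targets did. In 11.3% of genes tested, all EY libraries lay above all N libraries. The median difference was 0.59 (log2) over the 8 YAP targets tested and 0.03 over all genes tested. Ctgf is in that median and among the 4 targets higher at the unadjusted p. It passed the filter only through its EY libraries, since 6 EY libraries and 1 N library reached 1 TPM. Its place in both is therefore no support for a difference.

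**Figure D1:**
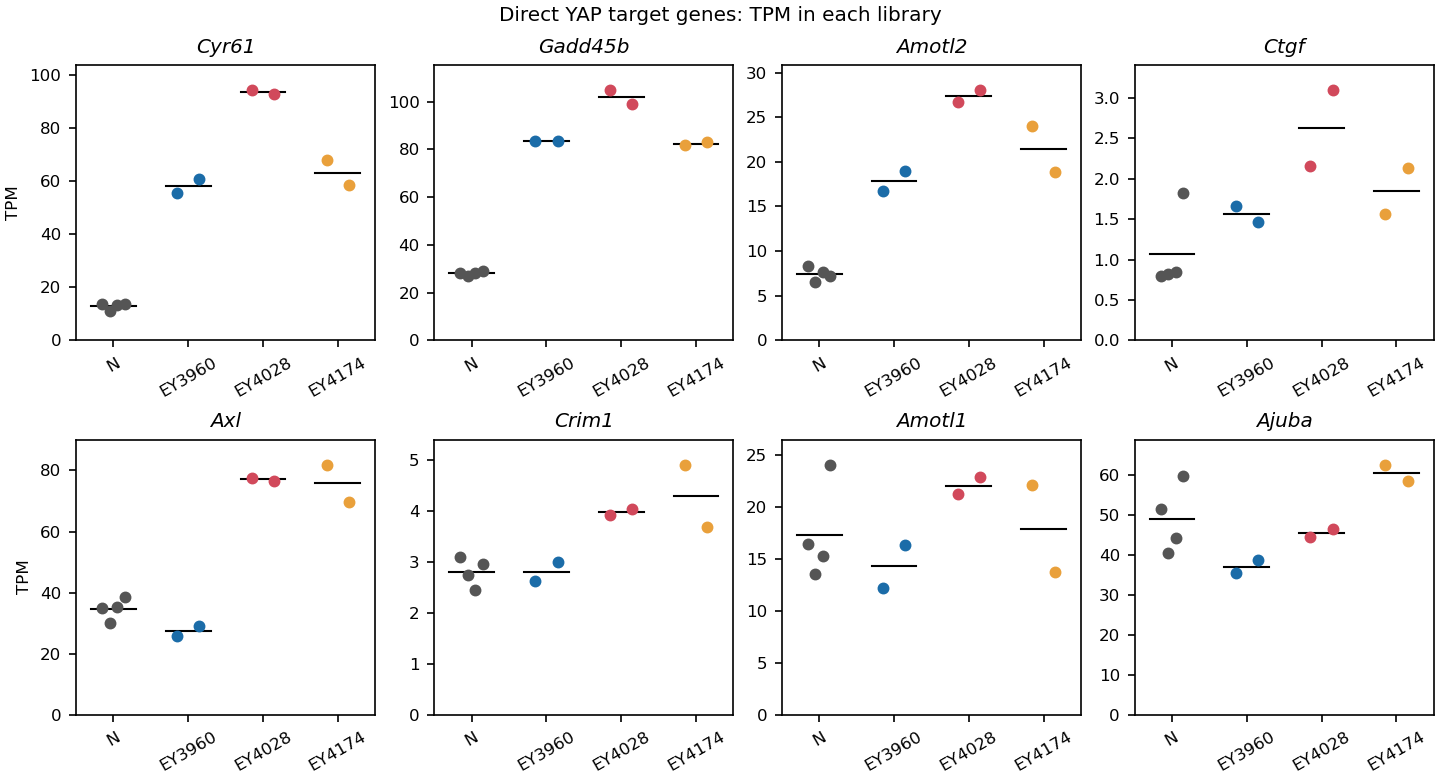
TPM of the 8 YAP target genes with a row (vertical axis, linear from 0, a scale per gene) in each library, grouped by culture line on the horizontal axis; points are libraries and black lines are line means. For Cyr61, Gadd45b and Amotl2 every EY point is above every N point, whereas for Axl the line EY3960 lies below N and the lines EY4028 and EY4174 lie above it.

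Cyr61 had the largest difference of the 8 genes. In line EY3960 its libraries had 55.7 and 60.9 TPM, with 94.4 and 92.9 TPM in EY4028, and 68.1 and 58.5 TPM in EY4174. The N libraries had 13.7, 11.0, 13.3 and 13.9 TPM. The lowest EY library was thus far above the highest N library. The means were 71.7 ± 17.5 TPM over the 6 EY libraries and 13.0 ± 1.31 TPM over the 4 N libraries (± SD). On the log2 scale the difference was 2.35 (SE 0.16), with a limma adjusted p of 1.9e-06, and it ranked 38 from the highest among the 11630 genes tested.

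Ctgf, the CCN paralogue of Cyr61, was expressed at far lower levels. It was measured at 1.66 and 1.47 TPM in EY3960, 2.16 and 3.10 TPM in EY4028, and 1.56 and 2.13 TPM in EY4174. N replicates 1 to 3 had 0.795, 0.816 and 0.847 TPM, and N replicate 4 had 1.82 TPM. That N library lay above 3 of the 6 EY libraries, so that the groups overlapped. The difference was 0.55 (SE 0.18, 95% interval 0.15 to 0.95) with a limma adjusted p of 0.0468, short of the threshold. Without N replicate 4 it was 0.70 with a limma adjusted p of 0.0133, and that library is the one with the high value. Without N replicates 1, 2 and 3 in turn it was 0.49, 0.49 and 0.50, with limma adjusted p 0.131, 0.133 and 0.126. With line as a random block the limma adjusted p was 0.342.

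Gadd45b was the most even of the 3 genes that rose. It was at 83.4 and 83.5 TPM in EY3960, 105 and 98.8 TPM in EY4028, and 81.6 and 83.1 TPM in EY4174, against 28.3, 26.9, 28.2 and 29.1 TPM in N. All EY libraries stood above all N libraries, and libraries within a line differed little. The means were 89.2 ± 9.95 TPM over the 6 EY libraries and 28.1 ± 0.940 TPM over the 4 N libraries (± SD). The difference of 1.62 (SE 0.086) had a limma adjusted p of 3.69e-07, which ranked 10 among all genes tested.

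The 2 angiomotin genes went separate ways. Amotl2 was at 16.7 and 19.0 TPM in EY3960, 26.7 and 28.0 TPM in EY4028, and 24.1 and 18.8 TPM in EY4174, with 8.32, 6.59, 7.67 and 7.16 TPM in N. Again no EY library fell among the N libraries. The difference was 1.44 (SE 0.15) with a limma adjusted p of 4.66e-05. Amotl1 was at 12.2 and 16.4 TPM in EY3960, 21.3 and 22.9 TPM in EY4028, and 22.2 and 13.7 TPM in EY4174, whereas N had 16.4, 13.6, 15.3 and 24.1 TPM. Its highest value was in an N library, and the groups overlapped throughout. The difference of 0.05 (95% interval -0.38 to 0.49) had a limma adjusted p of 0.872, and its sign turned with the libraries used, to -0.10 without line EY4028.

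Ajuba and Crim1 showed no difference that passed the test. Ajuba was at 35.4 and 38.8 TPM in EY3960, 44.4 and 46.5 TPM in EY4028, and 62.7 and 58.6 TPM in EY4174, and N had 51.5, 40.4, 44.3 and 59.8 TPM. Line EY3960 was below all N libraries and 1 library of EY4174 was above them. The difference over all EY libraries was -0.05 (95% interval -0.41 to 0.31), with a limma adjusted p of 0.853, and became 0.11 without line EY3960. Crim1 was low in every library, at 2.61 and 2.99 TPM in EY3960, 3.92 and 4.02 TPM in EY4028, 4.90 and 3.68 TPM in EY4174, and 3.09, 2.74, 2.43 and 2.96 TPM in N. Its EY4028 and EY4174 libraries were above all N libraries and its EY3960 libraries lay among them. The difference of 0.29 (95% interval -0.03 to 0.60) had a limma adjusted p of 0.166.

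Axl separated the EY lines. Its level was 25.8 and 29.2 TPM in EY3960, 77.7 and 76.5 TPM in EY4028, and 82.0 and 69.8 TPM in EY4174, against 35.1, 30.1, 35.2 and 38.5 TPM in N. Both EY3960 libraries were below all N libraries, and the other 4 EY libraries were above all of them. Pooled over the lines, the difference from N was 0.64 (95% interval -0.15 to 1.43) with a limma adjusted p of 0.222. Without line EY3960 it was 1.12 with a limma adjusted p of 2.85e-05. It was 0.39 without EY4028 (limma adjusted p 0.508) and 0.41 without EY4174 (limma adjusted p 0.472). EY3960 is the line below N, so the larger difference without it follows from these same values and is no separate support. The ligand gene Gas6, named after its values were seen, had a mean of 13.3 ± 3.84 TPM over the 6 EY libraries and 13.8 ± 1.92 TPM over the 4 N libraries (± SD). The Gas6 line means were 10.8 TPM in EY3960, 10.8 TPM in EY4028 and 18.2 TPM in EY4174, with 11.1 to 15.6 TPM in the N libraries.

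The calls of Cyr61, Gadd45b and Amotl2 over all EY libraries rest on libraries as replicates. With the mean of each line as 1 sample, 3 EY lines against 1 N line, the differences were the same size and the limma adjusted p was 0.0938, 0.0566 and 0.15, in that order. In that fit 2 genes of all those tested were called.

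Each EY line was next set against N, to see which of the genes differed from N in every culture. These comparisons share the 4 N libraries. Cyr61, Gadd45b and Amotl2 were called higher in all 3 lines, and Axl was called in EY4028 and EY4174. The background was 7.04% of genes called in either direction for EY3960, 5.74% for EY4028 and 4.95% for EY4174, against 3, 4 and 4 of the YAP targets. The Cyr61 mean was 4.50 times the N mean in EY3960, 7.23 times in EY4028 and 4.89 times in EY4174. On the log2 scale, Cyr61 differed from N by 2.09, 2.77 and 2.21 (SE 0.11 each) in these lines. For Gadd45b the corresponding differences were 1.54, 1.82 and 1.52 (SE 0.071 each), and for Amotl2 they were 1.16, 1.75 and 1.41 (SE 0.13 each). The least difference among these was that of Amotl2 in EY3960, with a limma adjusted p of 6.19e-05.

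Axl differed from N by -0.32 in EY3960 (SE 0.11, limma adjusted p 0.0486), which did not pass the threshold. It was higher by 1.13 in EY4028 (limma adjusted p 3.34e-05) and by 1.11 in EY4174 (limma adjusted p 4.88e-05). The call in EY4174 was just over the size required and became 0.99 without EY replicate 3. Ctgf differed from N by 0.34 in EY3960, 0.82 in EY4028 and 0.48 in EY4174, with no call. Crim1 differed by -0.00060, 0.39 and 0.47, Amotl1 by -0.24, 0.36 and 0.04, and Ajuba by -0.38, -0.09 and 0.32, in the same order of lines. None of these passed the threshold in any line, and the directions of Amotl1 in EY4174, Ajuba in EY4028 and Crim1 in EY3960 turned when 1 library was left out.

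**Figure D2:**
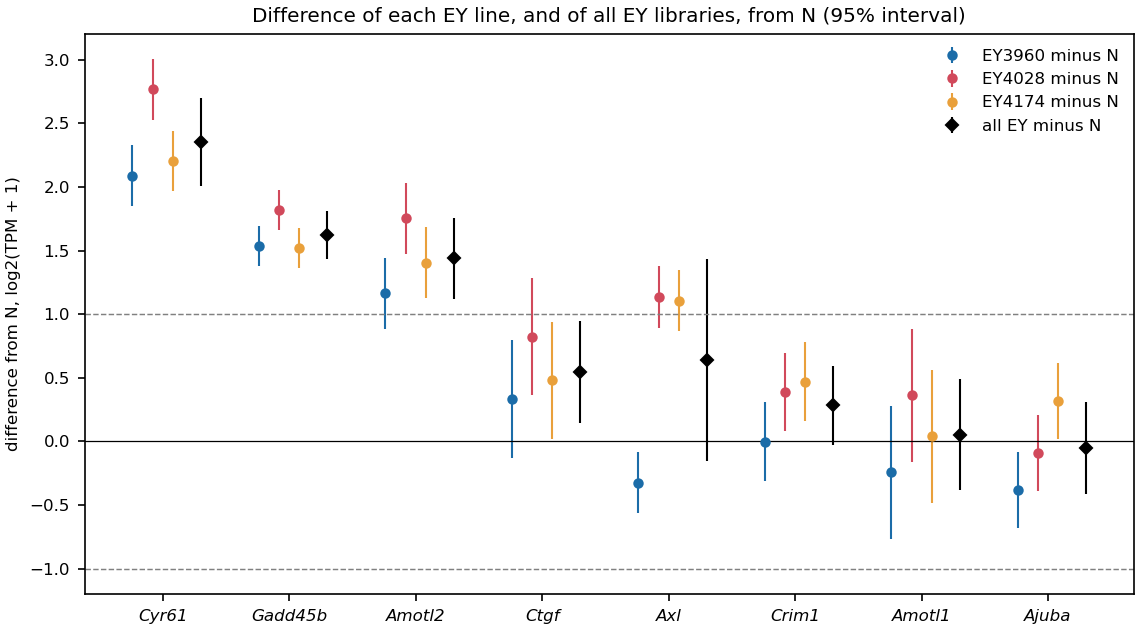
Difference from N in log2(TPM + 1) (vertical axis) for each YAP target gene (horizontal axis), for each EY line (circles) and for all EY libraries (diamonds), with 95% intervals from limma; dashed lines mark differences of 1 and -1. Cyr61, Gadd45b and Amotl2 lie above the upper dashed line in every line, and Axl lies above it in EY4028 and EY4174 and below 0 in EY3960.

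The means of the EY lines were also set in order for each of these genes. The line mean was highest in EY4028 for 6 genes (Cyr61, Ctgf, Gadd45b, Axl, Amotl1 and Amotl2) and in EY4174 for Crim1 and Ajuba. It was lowest in EY3960 for 7 of the 8 genes, the exception being Gadd45b. In EY3960 the mean of 4 genes, Axl, Crim1, Amotl1 and Ajuba, was below the N mean. This order is a count over genes and was not tested as such. The share of all genes with the same order is not given, so the order is not shown to be particular to these genes.

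In limma's F test among the EY lines, with at least 1 pair of lines differing by over 1, Axl alone of the YAP targets was called, against 5.12% of genes tested. At any size of difference, 8.55% of genes passed the F test, and Cyr61 and Axl did among the YAP targets. Axl was higher in EY4028 than in EY3960 by 1.46 (SE 0.13, limma adjusted p 5.15e-05) and higher in EY4174 than in EY3960 by 1.43 (SE 0.13, limma adjusted p 2.46e-05). Between EY4174 and EY4028 the Axl difference was -0.03 (95% interval -0.31 to 0.25). Cyr61 was higher in EY4028 than in EY3960 by 0.68 (limma adjusted p 0.00804), below the size required for a call. Over the 24 comparisons of a gene between 2 EY lines, the 2 of Axl with EY3960 were called. For Ajuba, EY4174 minus EY3960 was 0.70 (limma adjusted p 0.0109), and for Amotl2, EY4028 minus EY3960 was 0.59 (limma adjusted p 0.0345).

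Libraries of the same line gave the scale for these differences. Between the libraries of an EY line, the 8 genes differed by 0.0019 to 0.652 on the log2 scale. Gadd45b in EY3960 was at the low end and Amotl1 in EY4174 at the high end, where sample 2 was lower by 0.65. Over all genes tested, the median absolute difference between the libraries of a line was 0.143 in EY3960, 0.081 in EY4028 and 0.171 in EY4174. Among the N libraries, replicate 4 was the highest for 6 of the 8 genes. The share of all genes that were highest in this library is not given, so the count is not shown to be particular to these genes. Replicate 4 exceeded the mean of the other 3 by 0.65 for Amotl1, 0.63 for Ctgf and 0.40 for Ajuba, while the median over all genes tested was -0.0072.

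Because TPM are scaled for transcript length, the levels of the genes could be set side by side. In N, the order of mean TPM from the highest was Ajuba at 49.0, Axl at 34.7, Gadd45b at 28.1, Amotl1 at 17.3, Cyr61 at 13.0, Amotl2 at 7.43, Crim1 at 2.80 and Ctgf at 1.07. Neighbours in this order did not overlap over the N libraries, except Amotl1 and Cyr61. In EY the order was Gadd45b at 89.2, Cyr61 at 71.7, Axl at 60.2, Ajuba at 47.7, Amotl2 at 22.2, Amotl1 at 18.1, Crim1 at 3.69 and Ctgf at 2.01. Here neighbours overlapped over the EY libraries, except Ajuba with Amotl2 and Amotl1 with Crim1. Cyr61 thus stood in place 5 in N and place 2 in EY, and Gadd45b in place 3 and place 1.

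The upstream genes were measured in the same libraries. Yap1 had a mean of 44.1 ± 9.54 TPM over the 6 EY libraries and 18.7 ± 1.79 TPM over the 4 N libraries (± SD), a difference of 1.17 with a limma adjusted p of 0.000173. It was highest in line EY4174, at a mean of 56.01 TPM, against 39.4 TPM in EY3960 and 36.8 TPM in EY4028. Of the 8 YAP targets, 6 had their highest line mean in EY4028, but none was called between EY4174 and EY4028. Whether the targets follow Yap1 over the lines was not tested. Without EY4174 the Yap1 difference was 0.99, under the size required. The call was also lost with line means (limma adjusted p 0.209) and when sample numbers entered as a block (1.14, limma adjusted p 0.0137). How much of the Yap1 value came from the transgene was not tested. Wwtr1, which encodes TAZ, had means of 9.84 TPM in EY and 10.3 TPM in N, and the sign of its difference turned with the libraries used. The TEAD factors were not called: Tead1 differed by 0.63, Tead2 by -0.96, Tead3 by -0.18 and Tead4 by 0.93. Their limma adjusted p was 0.0419, 0.0152, 0.337 and 0.000142, in that order. Tead4 thus passed the adjusted p below the size required, and all its EY libraries were above all its N libraries. It ranged from 9.88 to 13.7 TPM in EY and from 4.74 to 6.66 TPM in N. With line as a random block its limma adjusted p was 0.0162. Tead2 was called in 2 of 23 alternative fits and Tead4 in 2 of 24.

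Other genes of the pathway were counted by the same fit. Of 16 other genes on a published YAP/TAZ target list, 15 had a row and 12 were tested, and 0 were called by limma in either direction. At an unadjusted p under 0.05, 6 of the 12 were higher in EY and 2 were lower, beside 21.2% and 16.3% of all genes tested. Arhgef17, named after its values were seen, is among the 6. It passed the filter only through EY libraries, since no N library exceeded 0.764 TPM. It is therefore no support for a difference, in this count or in the median of the 12 genes. Lats2, a LATS kinase gene, and Dock5, a guanine nucleotide exchange factor gene, passed the adjusted p below the size required, with 0.54 and 0.62. The other LATS kinase gene, Lats1, differed by -0.18 (limma adjusted p 0.336). Lats2, Dock5 and Lats1 are named after their values were seen. The median difference of these 12 genes was 0.35, with 9 of 12 positive, against 0.03 over all genes tested. Of 24 Hippo pathway genes, 22 were tested, and Yap1 and Vgll3, a TEAD cofactor gene, were called higher, beside 1.85% of all genes tested. Vgll3 differed by 1.04 (limma adjusted p 0.000567) and lost its call in 7 of 24 alternative fits, in which the difference ranged from 0.88 to 1.16. The median difference over the pathway was 0.02, with 0 genes called lower by limma. At an unadjusted p under 0.05, 8 of the 22 genes were higher and 4 were lower. Lats2 is on both lists.

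Among 19 relatives and partners of the YAP targets, 9 were tested and Pros1, which encodes protein S, a ligand of the TAM receptor family to which Axl belongs, was called. It was at 0.189 to 0.696 TPM in EY and 2.03 to 5.82 TPM in N, a difference of -1.76 with a limma adjusted p of 0.000205. Pros1 passed the filter only through its 4 N libraries, in which it is high, so that its call is no support for a difference, and it could not be tested with an N library left out. Of 19 immediate early genes, which respond quickly to growth factors, serum and stress, 17 were tested and Atf3 was called. By the same rule 3.55% of all genes tested were called in either direction. Atf3, a stress-induced transcription factor gene, had means of 17.3 ± 2.16 TPM over the 6 EY libraries and 5.26 ± 2.98 TPM over the 4 N libraries (± SD), a difference of 1.64 with a limma adjusted p of 0.000324. With line as a random block, the adjusted p of Pros1 was 0.0229 and that of Atf3 was 0.0335. The median difference of the immediate early genes was 0.32, against 0.03 over all genes tested. At an unadjusted limma p under 0.05, 8 of the 17 were higher and 4 were lower, beside 21.2% and 16.3% of all genes tested.

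**Figure D3:**
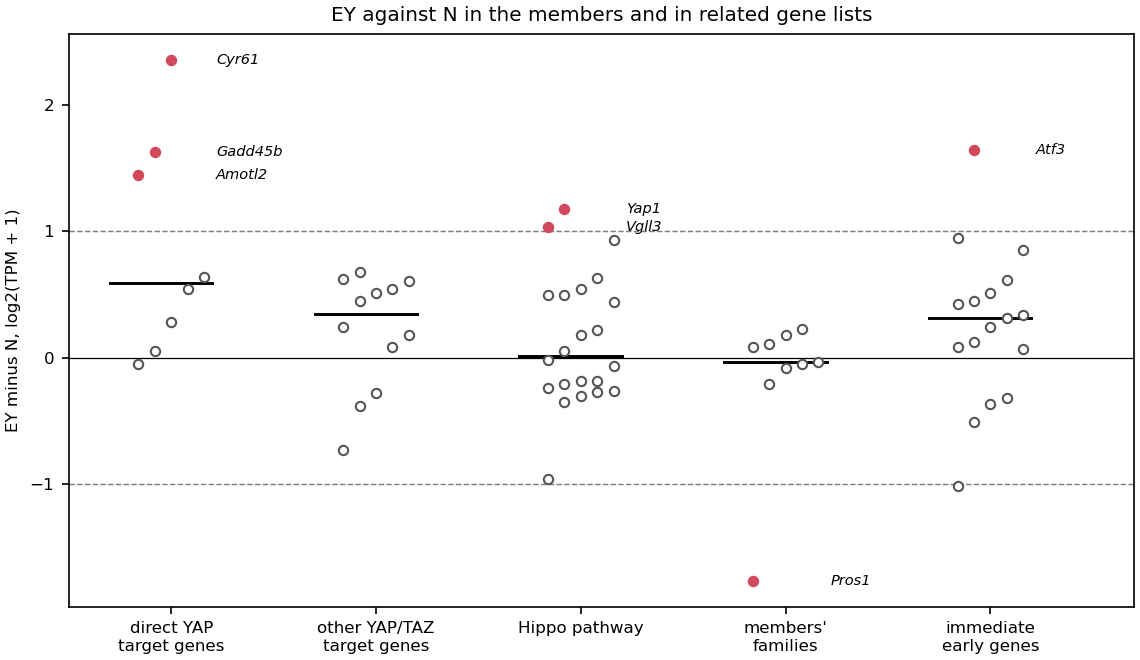
Difference between EY and N in log2(TPM + 1) (vertical axis) for each tested gene of the YAP targets and of 4 related lists (horizontal axis); filled points are genes called by limma, open points are not called, black bars are list medians and dashed lines mark 1 and -1. The medians are 0.59 for the direct YAP target genes, 0.35 for other YAP/TAZ targets, 0.02 for the Hippo pathway, -0.04 for the members' families and 0.32 for immediate early genes.

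The genes whose pattern over the 10 libraries was nearest to Cyr61 and to Axl were found by the root mean square difference in log2(TPM + 1) from the N mean, among 7627 genes with a mean of at least 5 TPM. Nearest to Cyr61 were Pglyrp3, a peptidoglycan recognition protein gene, at 0.17, Lgals1, which encodes galectin-1, at 0.26, and G6pc3, a glucose-6-phosphatase gene, at 0.29. Lgals1 had line means of 216 TPM in EY3960, 273 TPM in EY4028 and 154 TPM in EY4174, against 44.7 TPM in N. Nearest to Axl were Npepl1, an aminopeptidase-like gene, at 0.15, Agrn, which encodes the proteoglycan agrin, at 0.25, and Timp1, a metalloproteinase inhibitor gene, at 0.26. Timp1 had line means of 12.8 TPM in EY3960, 24.01 TPM in EY4028 and 35.2 TPM in EY4174, against 14.4 TPM in N. These genes were selected for their likeness, which describes these 10 libraries.

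**Figure D4:**
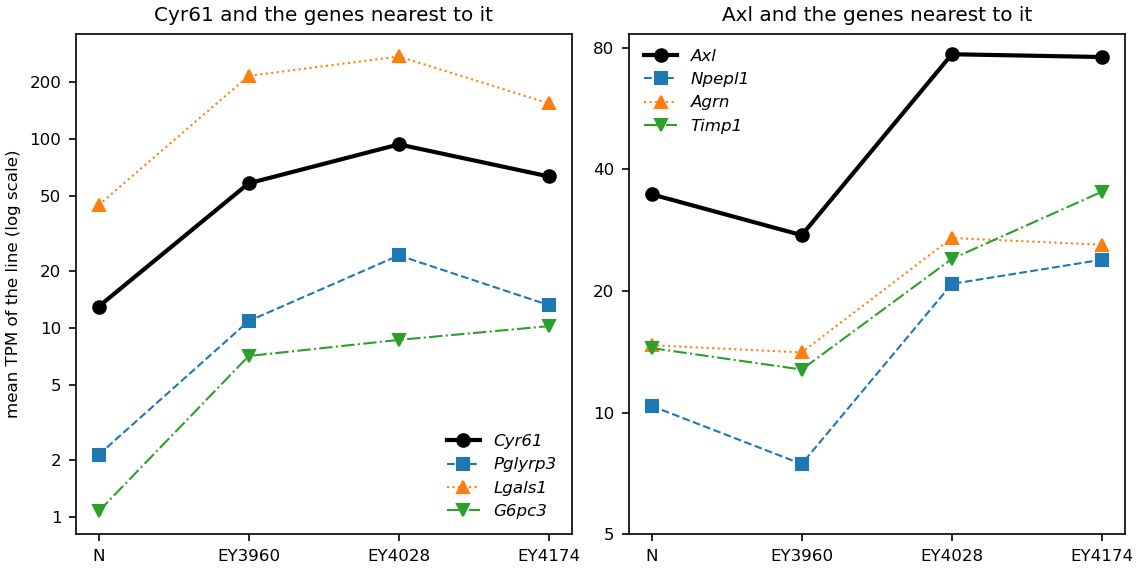
Mean TPM of each culture line (vertical axis, log scale; horizontal axis, N and the 3 EY lines) for Cyr61 and for Axl (black) and the 3 genes nearest to each in pattern. Cyr61 and its neighbours are above N in every EY line, and Axl and its neighbours are below N in EY3960 and above N in EY4028 and EY4174.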

How the data were processed

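Poly(A) RNA of 6 EY and 4 N libraries was sequenced. The authors deposited 1 table of TPM by gene symbol. The submitters' processing notes name STAR 2.7.9, SAMtools 1.7, HTSeq 0.13.5, DESeq2 1.34.0 and build GRCm39, and the study's methods name Kallisto for TPM used in enrichment; which step made the table is not given in the sources used here. Every row was above 0 in at least 6 libraries. Read depth is unknown, so no counting interval is given.

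Differences were fitted with limma 3.58.1 (R 4.3.3; trend and robust options) on log2(TPM + 1) over genes that reached 1 TPM in 4 or more libraries, as EY against N and with 4 line means. Adjusted p-values are Benjamini-Hochberg values over all 11630 genes. A call needed an adjusted p under 0.01, as in the study, and a difference over 1. The fits were tested on simulated data, in which libraries varied independently apart from set changes. That test therefore cannot show how a spread between lines affects the calls of EY against N. Genes named were the YAP targets, called genes of the lists, Yap1, Wwtr1, Tead1 to Tead4 and the 3 genes nearest to Cyr61 and Axl; exceptions are stated. The YAP targets and lists were chosen with earlier results of these data known. Alternatives were other pseudocounts, filters, scalings and moderation, the line or sample number as a block, line means, and each library or line left out.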

Additional observations from a re-analysis of the deposited data

Results flagged for a closer look

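Ctgf in N replicate 4, at 1.82 TPM, stood apart from the other N libraries, which had 0.795 to 0.847 TPM; the gap to the nearest of them was 0.949 of the range of the group. Among the 16 groups of values examined, 0.8 would be flagged by chance at 1 in 20. The same library was also the highest N library for Cyr61, Gadd45b, Axl, Amotl1 and Ajuba, and the share of all genes for which it was highest is not given.

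Axl differed between the EY lines by the test of the difference itself. EY4028 minus EY3960 was 1.46 and EY4174 minus EY3960 was 1.43 on the log2 scale, and both EY3960 libraries were below all N libraries. Cyr61 also passed the F test among the lines (limma adjusted p 0.00676), with a largest difference of 0.68 between EY4028 and EY3960. With 2 libraries a line, differences between lines and between the animals they came from cannot be told apart.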

How the results depend on the processing

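Over 24 alternatives, the difference between EY and N ranged from 2.15 to 2.49 for Cyr61, 1.53 to 1.68 for Gadd45b and 1.28 to 1.58 for Amotl2, and each lost its call in 1 of them, the mean of each line as 1 sample, where 0 YAP targets and 2 of all genes were called. With line as a random block (correlation 0.44 within a line) the adjusted p-values of these 3 genes were 5.79e-05, 1.41e-05 and 0.00175, and 203 of all genes were called in place of 413. Requiring 1 TPM in every library left 216 genes for EY against N, 455, 371 and 317 for EY3960, EY4028 and EY4174, and 350 among the EY lines, with fewer genes tested and no value for Ctgf. Deviations from the group mean had a correlation of -0.12 to 0.04 between EY and N libraries of the same sample number. The EY deviations include differences between lines, so these values cannot show whether sample numbers pair the libraries. With sample numbers as a replicate block 221 genes were called, Ajuba was at 0.034 and Wwtr1 at 0.030.

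Signs turned for genes near 0. Leaving out 1 library gave -0.046 to 0.22 for Amotl1, -0.14 to 0.048 for Ajuba and -0.12 to 0.0039 for Wwtr1 against N, -0.071 to 0.070 for Crim1 in EY3960, -0.28 to 0.37 for Amotl1 in EY4174, -0.18 to 0.0081 for Ajuba in EY4028, and -0.14 to 0.087 for Axl between EY4174 and EY4028. Without a line, Amotl1 was at -0.10 (EY4028), Ajuba at 0.11 (EY3960) and Wwtr1 at 0.063 (EY4174). Quantile normalisation gave 0.0035 for Crim1 in EY3960 and 0.042 for Axl between EY4174 and EY4028, which median-ratio scaling put at 0.13. The cause was not tested. The unknown depth limits what can be said of Ctgf and Crim1, the lowest genes.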
